A study of Caenorhabditis elegans with 11 samples.

Results

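The nhr genes of Caenorhabditis elegans encode nuclear hormone receptors, and 283 genes in the count tables carry a name of the form nhr followed by a number. A gene counted as measured when its CPM (its counts scaled to a fixed library total) reached 1 in at least 2 of 8 libraries, and 153 of the 283 nhr genes met that limit. The same limit was met by 12054 of all 47084 genes listed. The limit used only the level of a gene and none of the differences between groups. Of the 130 nhr genes that were not measured, 17 had no count in any of the 8 libraries.

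The libraries were made from total RNA of whole day 1 adults, about 1000 worms each, kept at 20 °C on E. coli OP50. N2, the standard wild-type strain, had 2 libraries. The WT line had 3 libraries. In a daf-16(mu86) background it carries iqIs79, an integrated transgene in which daf-16p, the promoter of daf-16, drives the forkhead transcription factor DAF-16 fused to GFP. The 2KR line, daf-16(mu86) with iqIs85, had 3 libraries and carries the same fusion with the lysine-to-arginine changes K248 + 253R, which the series text describes as hypoacetylated DAF-16. Both transgenic lines therefore lack the endogenous gene through mu86 and share the GFP tag and the plasmid pRF4, which carries a rol-6 marker gene. Each transgene was represented by 1 line, so the substitutions, the insertion and the copy number cannot be told apart, and N2 differs from both lines in all of these features at once. A 4KR line was not analysed here because its counts do not match the names listed with them. The design text states 3 repeats a group, of which N2 had 2 here.

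Nuclear hormone receptors are transcription factors with a zinc-finger DNA-binding domain and a ligand-binding domain, and many switch target genes on or off when a lipid or other small molecule binds. The family is strongly expanded in C. elegans, and a large share of its members descend from a receptor related to mammalian HNF4. The members that have been studied act in fat metabolism, molting, the use of vitamins and amino acids from the bacterial diet, responses to toxins and pathogens, and development. DAF-16 is the FOXO factor of the insulin pathway, which acts in much of the same metabolic and stress biology.

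Total counts ran from 21947014 to 30810301 per library, of which the 153 nhr genes took 0.125% to 0.14%. The daf-16 counts, which by genotype come from the endogenous gene in N2, were 143.6 to 155.6 CPM there. In the lines, which carry the transgene in the mu86 background, they were 392.7 to 461.4 in WT and 212.6 to 292.3 in 2KR. The 2 transgenic lines therefore also differed in daf-16 RNA. Any RNA of the mu86 allele cannot be separated from that of the transgene by these counts. The rol-6 marker had 2 and 3 counts in N2 and 1569 to 4469 in the transgenic lines. Headings in the files carry a repeat mark. Replicates 1, 2 and 3 of WT and 2KR have the marks 1, 3 and 6-6, and the 2 N2 libraries have the marks 1 and 6-6, so no N2 library matches the second replicate of the other lines. All 8 libraries were distinct, and same-numbered WT and 2KR libraries deviated from their group means together.

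Marker genes were summed as CPM scaled by the trimmed mean of M values (TMM), the unit of every level below. The intestine markers summed to 46190 to 48680 in N2, 41920 to 45130 in WT and 46140 to 48050 in 2KR. Most of that sum came from the yolk protein genes vit-2, at 18980 to 22220, and vit-6, at 20790 to 24140, neither of which was called. Of the 8 intestine markers, ifb-2 and act-5 were called higher in both comparisons with N2. The log2 change of ifb-2, an intermediate filament gene, was 0.40 ± 0.07 in WT (adjusted p = 0.0151) and 0.59 ± 0.07 in 2KR (adjusted p = 0.00156). That of act-5, an actin gene of microvilli, was 0.44 ± 0.07 in WT (adjusted p = 0.00537) and 0.43 ± 0.07 in 2KR (adjusted p = 0.00506). Hypodermis markers, which include the transgene marker rol-6, summed to 1050 to 1113, 1068 to 1190 and 1277 to 1395. Muscle markers varied within every group, from 902 to 1197, from 1042 to 1410 and from 940 to 1539. Single markers differed from these sums. The muscle gene myo-3 had 40.1 and 49.3 in N2 and 53.8 to 80.7 in the lines, while the other muscle markers overlapped. The hypodermis gene elt-3 had 9.16 and 10.3 in N2 and 11.8 to 17.8 in the lines. By contrast lin-26, also of the hypodermis list, had 118.8 and 122.2 in N2 and 106.0 to 114.5 in the lines. Oocyte and germline markers summed to 3686 to 4288 over all libraries, sperm markers to 2.46 to 8.08, and neuron markers to 172 to 187. With the replicate number added to the fit, myo-3 and elt-3 were called higher in both lines against N2. In that fit 12.5% of all genes were called in WT and 18.8% in 2KR. Without replicate numbers neither was called, and besides rol-6, ifb-2 and act-5, 1 other marker was called, the neuronal gene ric-4 in 2KR against N2. The log2 change of ric-4 was 0.67 ± 0.18 (adjusted p = 0.046). The 5 sperm markers tested had a negative fitted change in all 3 comparisons and none of them was called. No marker list had a gene at 0 over the 8 libraries together. The part of these differences in the results below was not tested, and in whole worms fewer cells of a type and less RNA per cell cannot be told apart.

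Most nhr genes were present at low levels. The mean over the 8 libraries was below 1 CPM for 9 of the measured genes, 1 to 10 CPM for 112, 10 to 100 CPM for 30 and 100 CPM or more for 2. Summed over the 153 genes, the level was 1274 to 1281 CPM in N2, 1285 to 1352 in WT and 1317 to 1385 in 2KR. For a comparison between genes, levels were divided by the kilobases of annotated exon. On that scale the median gene had 1.99 CPM per kilobase, the quartiles were 1.18 and 5.15, and the range ran from 0.464 for nhr-179 to 56.1 for nhr-49. The genes nearest the limit were judged by their second-highest CPM of the library total, which was 1.01 for nhr-125, 1.04 for nhr-195, 1.06 for nhr-123 and 1.07 for nhr-225 just inside it. Just outside it were nhr-205 at 0.993, nhr-85 at 0.977, nhr-231 at 0.936 and nhr-273 at 0.882.

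nhr-49, an HNF4-related regulator of fatty acid desaturation and β-oxidation, stood at the top with 49.6 to 59.6 CPM per kilobase over the 8 libraries. Its lowest library lay above the highest library of every other top-ranked gene except nhr-114. nhr-23, a ROR-related receptor needed for molting, followed with a mean of 28.6 CPM per kilobase and a range of 26.4 to 30.2. Next came nhr-114, which protects the germline on certain bacterial diets and acts in the methionine and S-adenosylmethionine (SAM) cycle, with a mean of 25.1. The genes nhr-68, nhr-66 and nhr-86 had means of 24.1, 23.3 and 19.4 CPM per kilobase.

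The order among these neighbours was not firm. The libraries of nhr-114 spanned 9.64 to 53.4 CPM per kilobase and overlapped those of all 5 other genes named, and nhr-68 spanned 17.4 to 31.2. By contrast nhr-66, a partner of NHR-49, stayed within 21.5 to 24.7, and nhr-86, which senses a pathogen-derived metabolite in the intestine, stayed within 17.9 to 20.4. The libraries of nhr-86 lay below those of nhr-66 without overlap.

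**Figure D1:**
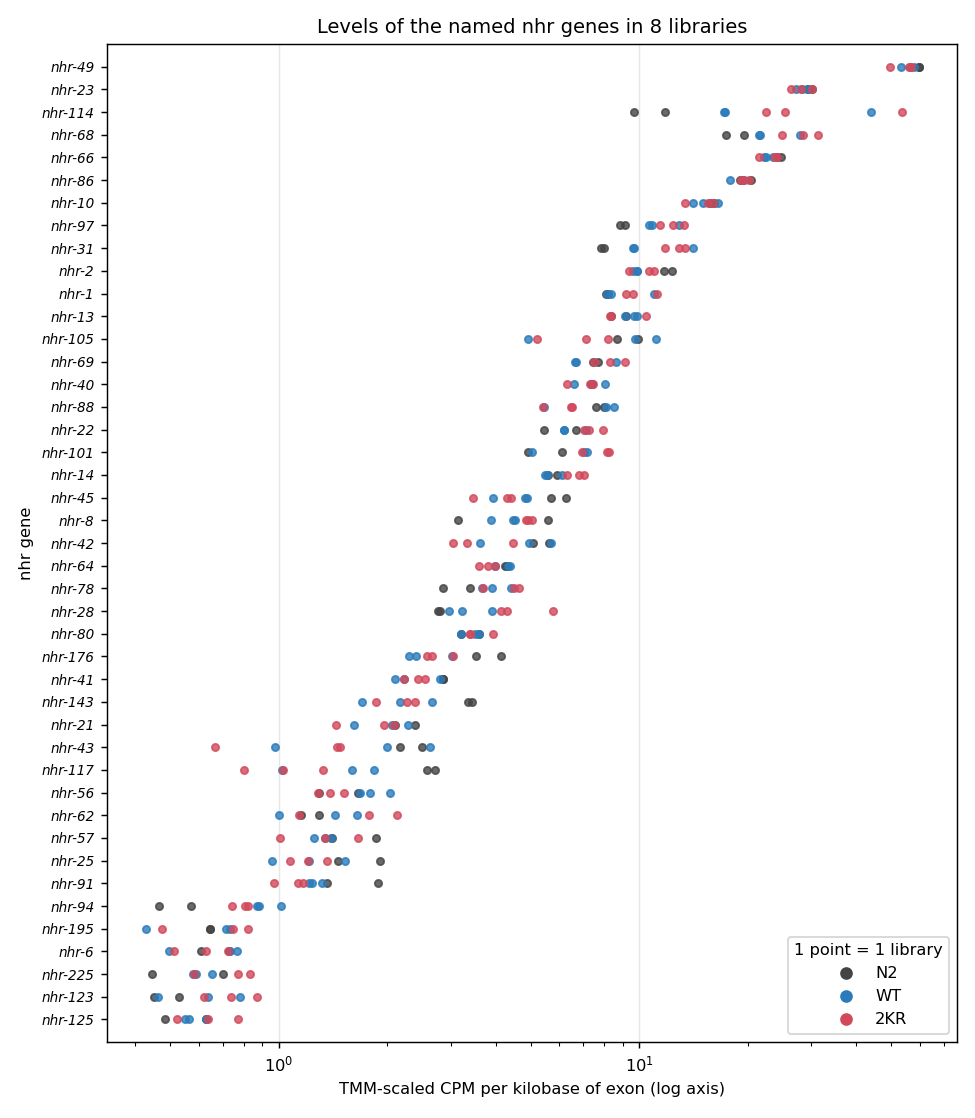
Level of each named nhr gene in TMM-scaled CPM per kilobase of exon on a log axis, with 1 point per library coloured by group (N2, WT, 2KR). The points of nhr-49 sit between 49.6 and 59.6, whereas those of nhr-114 are spread from 9.64 to 53.4.

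Other studied receptors were lower on the same scale. nhr-10, which with nhr-68 activates the propionate shunt, had a mean of 15.3 CPM per kilobase, and nhr-31, needed for the excretory canal, had 10.9. The NHR-49 partners nhr-13 and nhr-80, the latter an activator of fatty acid desaturase genes, had 9.17 and 3.48. nhr-25, an FTZ-F1-related regulator of molting and epidermis, had only 1.34, and nhr-6, an NR4A-type receptor that acts in the spermatheca, had 0.649. Of 24 receptors on a list of studied members, nhr-67, a tailless-related receptor, and nhr-85, related to Rev-erb, fell below the limit.

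Chromosome V held 174 of the 282 nhr genes with an annotated position in WBcel235, and 92 of them were measured (52.9%). On all other chromosomes 61 of 108 were measured (56.5%). The median level was 1.55 CPM per kilobase for the members on chromosome V and 4.55 for those elsewhere. Of the 16 members at 10 CPM per kilobase or more, 4 of 92 lay on chromosome V, namely nhr-114, nhr-68, nhr-86 and nhr-12, and 12 of 61 lay elsewhere. Another nhr gene lay within 5000 bases of 66 of the 92 members on chromosome V, and of 79 of the 153 members on all chromosomes. How alike such neighbours are in sequence, and whether the counting split reads between them, was not tested.

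**Figure D2:**
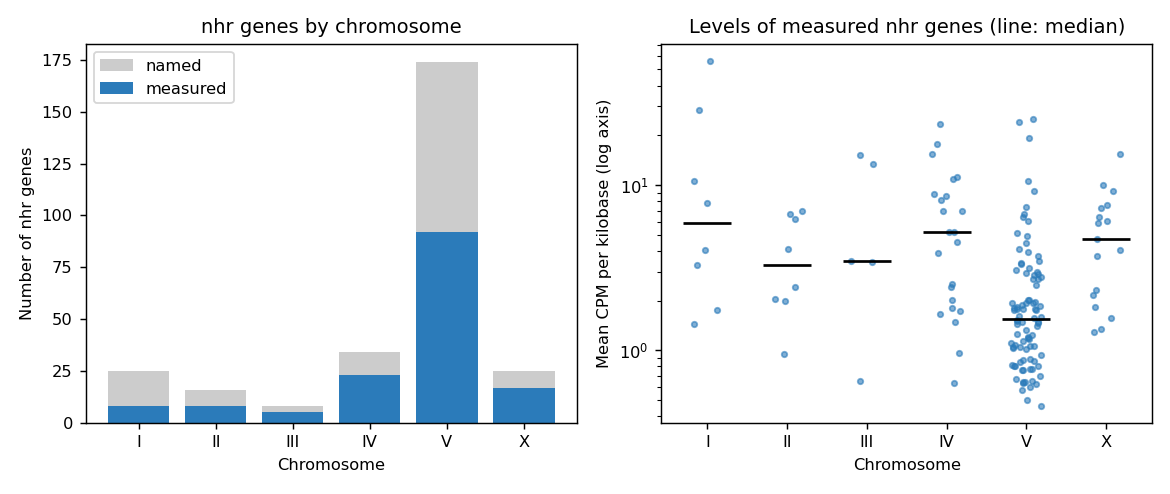
Left, bars give the number of nhr genes named and measured on each chromosome; right, each point is the mean level of 1 measured nhr gene in CPM per kilobase on a log axis, with a line at the median. Chromosome V holds the most genes, 174 named and 92 measured, and has the lowest median at 1.55.

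The comparison of the 2KR line with N2 gave the changes in nhr genes that passed the test. Levels of nhr-68, nhr-97, nhr-31 and nhr-28 rose in 2KR and levels of nhr-117 and nhr-45 fell, which makes 6 of 153 members (3.92%) at an adjusted p under 0.05 in edgeR's quasi-likelihood test. Of all 14361 genes tested, 7.76% were called in this comparison, so the share among nhr genes was not above the background. At an unadjusted p under 0.05 there were 26 members (17%), beside 25% of all genes. The median fitted change on the log2 scale was 0.07 for the members and 0.0074 for all genes. The libraries of the groups did not overlap for 58 members (37.9%), beside 43.8% of all genes.

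nhr-68, an activator of the propionate shunt, a route that breaks down propionate when vitamin B12 is scarce, lies on chromosome V at 11573440 to 11575709 on the plus strand. It had 23.1 and 26.0 CPM in N2, 28.6, 37.2 and 28.8 in WT, and 33.2, 41.6 and 37.9 in 2KR. Every library of both transgenic lines lay above both N2 libraries, and the WT and 2KR libraries overlapped. The log2 change in 2KR against N2 was 0.61 ± 0.14 (SE), with an adjusted p of 0.0249.

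nhr-97, on chromosome IV at 9757641 to 9764499 on the plus strand, was at 42.6 and 41.3 CPM in N2, 49.8, 60.2 and 50.7 in WT, and 53.4, 62.2 and 57.9 in 2KR. The log2 change in 2KR against N2 was 0.46 ± 0.10, with an adjusted p of 0.0188. nhr-31, on chromosome IV at 8022655 to 8029513 on the minus strand, had 19.4 and 19.1 CPM in N2, 23.6, 34.3 and 23.4 in WT, and 28.7, 32.7 and 31.5 in 2KR. In both genes the N2 libraries were the lowest, and the second WT replicate reached the level of the 2KR libraries. For nhr-31 the log2 change in 2KR against N2 was 0.68 ± 0.16, with an adjusted p of 0.0295.

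nhr-28, on chromosome X at 16354976 to 16359650 on the plus strand, gave 5.37 and 5.31 CPM in N2, 6.19, 7.5 and 5.69 in WT, and 7.94, 11.1 and 8.24 in 2KR. All 3 groups were apart from each other, with N2 lowest and 2KR highest. The log2 change in 2KR against N2 was 0.76 ± 0.18, with an adjusted p of 0.0316. An annotated noncoding gene on the opposite strand, C11G6.5, covers 7.75% of its exon bases, and whether the counting used strand is not stated.

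nhr-117, on chromosome V at 1619415 to 1621520 on the minus strand, moved the other way, with 4.81 and 5.08 CPM in N2, 2.99, 1.91 and 3.44 in WT, and 1.93, 1.5 and 2.49 in 2KR. Both N2 libraries were above all 6 libraries of the transgenic lines. The log2 change in 2KR against N2 was -1.33 ± 0.26, with an adjusted p of 0.0156, the lowest of the 6. Its neighbours did not pass the test: nhr-179, 555 bases away, had a log2 change of 0.36 ± 0.31 (adjusted p = 0.485), and nhr-110, 744 bases away on the other side, had 0.12 ± 0.19 (adjusted p = 0.706). nhr-45, on chromosome X at 4656433 to 4660318 on the minus strand, had 12.8 and 11.6 CPM in N2, 9.84, 8.02 and 9.97 in WT, and 8.79, 7.05 and 8.99 in 2KR. Here too both N2 libraries were the highest, and the log2 change in 2KR against N2 was -0.56 ± 0.14, with an adjusted p of 0.0399.

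The 6 calls rested on both N2 libraries. Without either of them, which leaves N2 with 1 library, none of the 6 was called. Without 2KR replicate 2 the calls of nhr-97 and nhr-117 remained, and without 2KR replicate 3 those of nhr-28, nhr-97 and nhr-117 remained. For each of the 6 genes all 2KR libraries lay on 1 side of both N2 libraries, so the direction within repeat marks was fixed by that. In marks 1 and 6-6 the log2 ratio of 2KR over N2 was 0.52 and 0.55 for nhr-68, 0.33 and 0.49 for nhr-97, 0.56 and 0.72 for nhr-31, and 0.56 and 0.63 for nhr-28. It was -1.30 and -1.02 for nhr-117, and -0.54 and -0.37 for nhr-45. These ratios of single libraries carry no test.

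**Figure D3:**
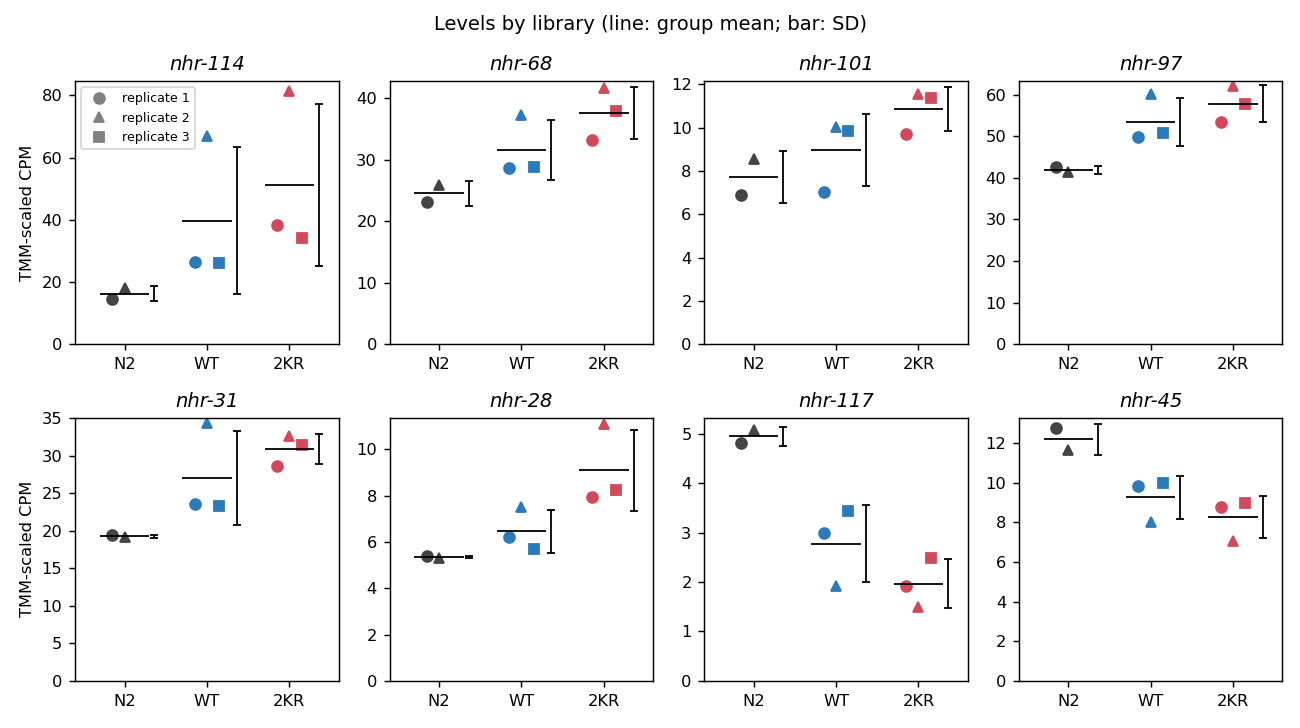
TMM-scaled CPM of 8 nhr genes in each library, with symbol shape for the replicate number, a line at the group mean and a bar for the SD. N2 lies lowest for nhr-114, nhr-68, nhr-97, nhr-31 and nhr-28 and highest for nhr-117 and nhr-45, and the second replicates of nhr-114 stand far above the others at 66.9 and 81.3 CPM.

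The comparison of the WT line with N2, which shares the N2 libraries with the one above, sets worms with the unsubstituted DAF-16 fusion against the wild type. No nhr gene was called by edgeR's quasi-likelihood test, beside 4.07% of all genes tested. At an unadjusted p under 0.05 there were 22 members (14.4%), beside 19.1% of all genes, and DESeq2 called 2, nhr-31 and nhr-97, both higher in WT. The share of all genes called by DESeq2 is not given, so the 2 is not a result about nhr genes. Groups did not overlap for 52 members (34%), beside 39.6% of all genes, and the median log2 change was 0.034 for the members and 0.0071 for all genes.

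The smallest p-values in this comparison belonged to nhr-97, nhr-94, nhr-2 and nhr-117. The log2 change in WT against N2 was 0.35 ± 0.10 for nhr-97 (adjusted p = 0.0751), and -0.83 ± 0.26 for nhr-117 (adjusted p = 0.112). nhr-94 had 0.935 and 0.758 CPM in N2, 1.66, 1.42 and 1.44 in WT, and 1.34, 1.32 and 1.21 in 2KR, and its log2 change was 0.83 ± 0.24 (adjusted p = 0.0893). nhr-2, which is expressed in the early embryo, had 22.7 and 21.5 CPM in N2, 18.2, 17.7 and 18.2 in WT, and 19.6, 20.2 and 17.3 in 2KR. Its log2 change in WT was -0.29 ± 0.09 (adjusted p = 0.107), and all libraries of both lines were below both N2 libraries.

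The genes called in 2KR had fitted changes in the same direction in WT, none past the threshold. The log2 change in WT against N2 was 0.36 ± 0.14 for nhr-68, 0.49 ± 0.16 for nhr-31, 0.27 ± 0.18 for nhr-28 and -0.39 ± 0.14 for nhr-45. Since both comparisons use the same 2 N2 libraries, these values are not independent of those in 2KR.

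**Figure D4:**
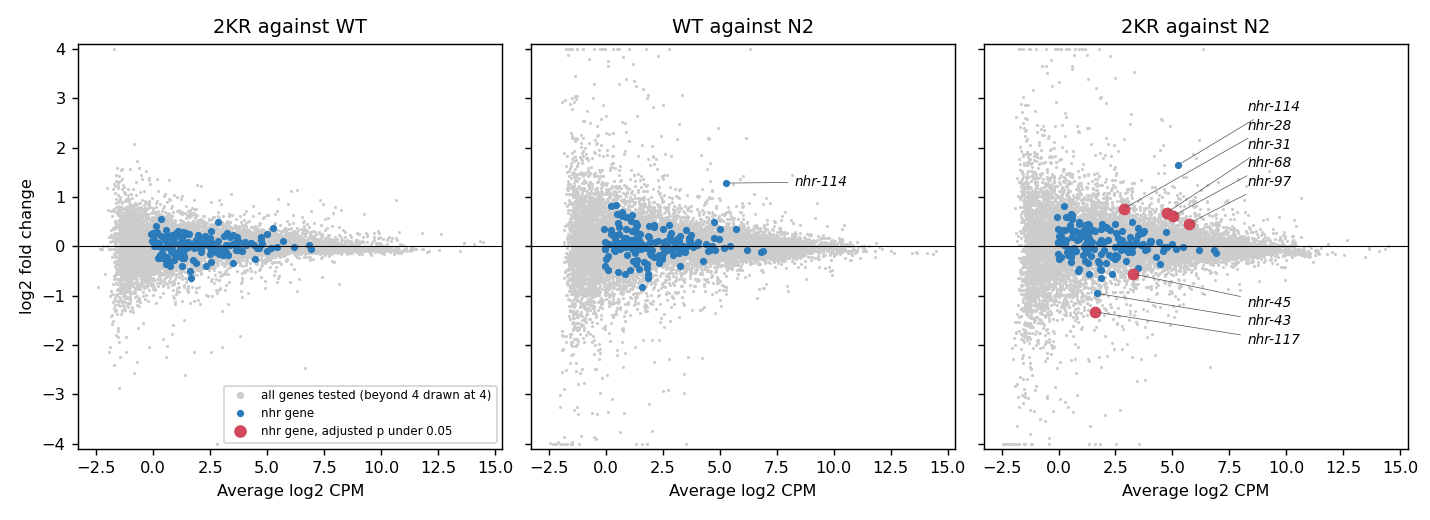
Log2 fold change against average log2 CPM for all genes tested (gray), nhr genes (blue) and nhr genes at an adjusted p under 0.05 (red) in the 3 comparisons. The 6 red points are in 2KR against N2, and nhr-114 has the highest fold change among nhr genes in both comparisons with N2, 1.28 and 1.65, without passing the test.

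The comparison of 2KR with WT sets the substituted fusion against the unsubstituted one. The libraries were fitted with a term per group, without the pairing of same-numbered WT and 2KR libraries. In that fit no nhr gene was called, beside 0.244% of all genes tested by edgeR's quasi-likelihood test. A fit with the pairing, given below, called 2 members (1.31%), beside 2.08% of all genes. At an unadjusted p under 0.05 there were 3 members (1.96%), beside 6.58% of all genes, and DESeq2 called 0. The median log2 change was 0.016 for the members and -0.0041 for all genes, and the fitted changes ran from -0.63 to 0.56. Groups did not overlap for 10 members (6.54%), beside 10.2% of all genes. Higher in 2KR were nhr-28, nhr-14, nhr-8 and nhr-238, and lower were nhr-56, nhr-91, nhr-94, nhr-120, nhr-180 and nhr-274; nhr-238, nhr-120, nhr-180 and nhr-274 are named for this count only, after their values were seen.

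nhr-28 had the smallest p of the members, with a log2 change in 2KR against WT of 0.49 ± 0.15 (adjusted p = 0.47). By replicate number its log2 ratio of 2KR over WT was 0.36, 0.56 and 0.53. nhr-14, a receptor that acts in iron and immune responses, had 10.2, 11.3 and 10.3 CPM in WT and 11.69, 13.04 and 12.64 in 2KR. All 2KR libraries lay above the WT libraries, and the log2 change was 0.23 ± 0.09 (adjusted p = 0.625). nhr-56 had 2.43, 2.59 and 2.95 CPM in WT and 1.86, 2.01 and 2.20 in 2KR, again without overlap, with a log2 change of -0.39 ± 0.17 (adjusted p = 0.734).

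A fit of WT and 2KR alone with the replicate number as a block changed this count. It called 2 members, both higher in 2KR, beside 2.08% of all genes. These were nhr-28, at an adjusted p of 0.0372, and nhr-114, at 0.0102. Over 19 alternatives the adjusted p of 2KR against WT ran from 0.0142 to 1 for nhr-28 and from 1.62e-07 to 1 for nhr-114. The log2 ratio of 2KR over WT for nhr-114 was 0.55, 0.28 and 0.39 in replicates 1, 2 and 3. Leaving out replicate pair 1 kept nhr-114 alone, leaving out pair 3 kept neither, and leaving out pair 2 gave 8 members. These refits keep 2 libraries a line, and the one without pair 2 gave the lowest adjusted p of both genes. The share of all genes called in these refits is not given, so the 8 is not a result about nhr genes. With the repeat mark as the block in the fit of all 8 libraries, nhr-28, nhr-68 and nhr-114 were called, and with the replicate number as the block in that fit none was, beside 2.22% and 1.54% of all genes. In all 3 pairs 26 members were higher in 2KR and 26 lower (17% each), beside 17.5% and 18.3% of all genes.

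nhr-114, on chromosome V at 4187202 to 4190008 on the plus strand, was the member whose level differed most between libraries. It had 14.7 and 17.9 CPM in N2, 26.3, 66.9 and 26.1 in WT, and 38.5, 81.3 and 34.1 in 2KR. The N2 libraries were the lowest, all 3 WT libraries were above them, and the second replicate was far above the other 2 in both lines. The highest library was 5.54 times the lowest. Its log2 change was 1.28 ± 0.48 in WT against N2 (adjusted p = 0.177) and 1.65 ± 0.49 in 2KR against N2 (adjusted p = 0.068), so the largest fitted increases among nhr genes did not pass the test. Its log2 change in 2KR against WT was 0.37 ± 0.39 (adjusted p = 0.939).

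Whether nhr-114 was called depended on the processing and on the second replicates, whose repeat mark no N2 library has. In 2KR against N2 its adjusted p was 0.00246 without the filter on low counts and 0.021 in a fit of those 2 groups, and over 15 alternatives it ran from 1.59e-05 to 0.342. With WT replicate 2 and 2KR replicate 2 left out, an alternative chosen after the values were seen, its log2 change in 2KR against N2 was 1.16, with an adjusted p of 0.000374, and it was also the 1 member called in WT against N2. Within marks 1 and 6-6 the log2 ratio over N2 was 0.84 and 0.54 for WT and 1.39 and 0.93 for 2KR. Without 2KR replicate 2 alone, its log2 change in 2KR against WT was -0.13, the opposite sign.

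The spread between replicates of a line was larger for nhr-114 than for any other member, with a pooled SD of 0.73 on the log2 scale. Next were nhr-43 with 0.68 and nhr-19 with 0.56, while the median was 0.199 for the 153 members and 0.148 for all genes tested. A comparison of replicate 3 with replicate 1 over WT and 2KR called 0 members in edgeR and 0 in DESeq2, with 19 at an unadjusted p under 0.05. Of all genes, 3.3% were called and 22% had such a p. The comparison of replicate 2 with replicate 1, added after the values were seen, called 10 members (6.54%) beside 8.39% of all genes, with 30 members (19.6%) and 25.7% of all genes at an unadjusted p under 0.05.

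Higher in the second replicates were nhr-114, nhr-36, nhr-62, nhr-68, nhr-1 and nhr-97. The log2 change of nhr-114 was 1.21 ± 0.07, with an adjusted p of 9.6e-05, and that of nhr-62, needed for the long life of worms on a restricted diet, was 0.82 ± 0.18, with an adjusted p of 0.0277. Lower were nhr-43, nhr-19, nhr-105 and nhr-88. nhr-43 had 3.61, 1.76 and 4.74 CPM in WT and 2.68, 1.21 and 2.63 in 2KR, and its log2 change in replicate 2 against replicate 1 was -1.09 ± 0.20, with an adjusted p of 0.015. In both lines its second replicate was the lowest. DESeq2 called 3 of the 10, and without replicate 1 of WT or of 2KR 1 and 2 of the 10 were called. nhr-19 and nhr-36 are named because they passed this test.

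Genes that the studied receptors are known to act on were followed as lists. The propionate shunt genes, activated by NHR-10 and NHR-68, all had positive fitted changes in all 3 comparisons. Of these 1 of 5 was called, hphd-1 in 2KR against N2, where 7.76% of all genes were called. hphd-1, which encodes a shunt dehydrogenase, had 104.8 and 153.2 CPM in N2, 174, 303 and 147 in WT, and 296, 448 and 250 in 2KR. All 3 2KR libraries lay above both N2 libraries, while the third WT replicate was within the N2 range. Its log2 change in 2KR against N2 was 1.36 ± 0.33, with an adjusted p of 0.0337. acdh-1, an acyl-CoA dehydrogenase gene whose promoter is used as a reporter of low vitamin B12, had 214 and 387 CPM in N2, 412, 898 and 340 in WT, and 758, 1209 and 631 in 2KR. Its log2 change in 2KR against N2 was 1.53 ± 0.43 (adjusted p = 0.0596).

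In the fit of WT and 2KR alone with the replicate block, all 5 shunt genes were called higher in 2KR, beside 2.08% of all genes. Their adjusted p ran from 1.31e-04 for hphd-1 to 0.00419 for alh-8, while over 19 alternatives the highest adjusted p of either gene was 1. The second replicates were also the highest of each line for all 5. Their log2 changes in replicate 2 against replicate 1 ran from 0.43 for alh-8 to 0.91 for acdh-1. All 5 were called, beside 8.39% of all genes. nhr-10, the partner of nhr-68, did not pass the test, with 24.9 and 24.4 CPM in N2, 23.2, 21.8 and 25.6 in WT, and 23.9, 20.7 and 24.8 in 2KR. Its groups overlapped in all comparisons, and its log2 change in 2KR against N2 was -0.09 ± 0.10 (adjusted p = 0.611).

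The methionine and SAM cycle genes, on which NHR-114 acts, had positive fitted changes in all 3 comparisons too. Of 4 genes, sams-1, the SAM synthetase, was called in both comparisons with N2, and metr-1, the vitamin B12-dependent methionine synthase, in 2KR. The share of all genes called was 4.07% in WT against N2 and 7.76% in 2KR against N2. sams-1 had 177 and 197 CPM in N2, 265.6, 313.1 and 238.1 in WT, and 338, 397 and 335 in 2KR. The 3 groups did not overlap. Its log2 change was 0.54 ± 0.12 in WT against N2 (adjusted p = 0.029) and 0.93 ± 0.12 in 2KR against N2 (adjusted p = 0.00157). In 2KR against WT the adjusted p of sams-1 was 0.309, and 0.00239 in the fit of the 2 lines with the replicate block. Over 19 alternatives it ran from 1.82e-13 to 0.881. The lowest value came from the blocked fit without replicate pair 2, which keeps 2 libraries a line. Without pair 1 or pair 3 the adjusted p of sams-1 was 0.00343 or 0.02. For metr-1 the log2 change in 2KR against N2 was 0.32 ± 0.08, with an adjusted p of 0.0306. Without either N2 library the calls of metr-1, of hphd-1 and of sams-1 in WT were lost, with adjusted p of up to 0.173, 0.277 and 0.283, and that of sams-1 in 2KR was kept, with adjusted p of up to 0.0387. Without 2KR replicate 2, hphd-1 (adjusted p = 0.0736) and metr-1 (adjusted p = 0.078) also lost their calls.

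**Figure D5:**
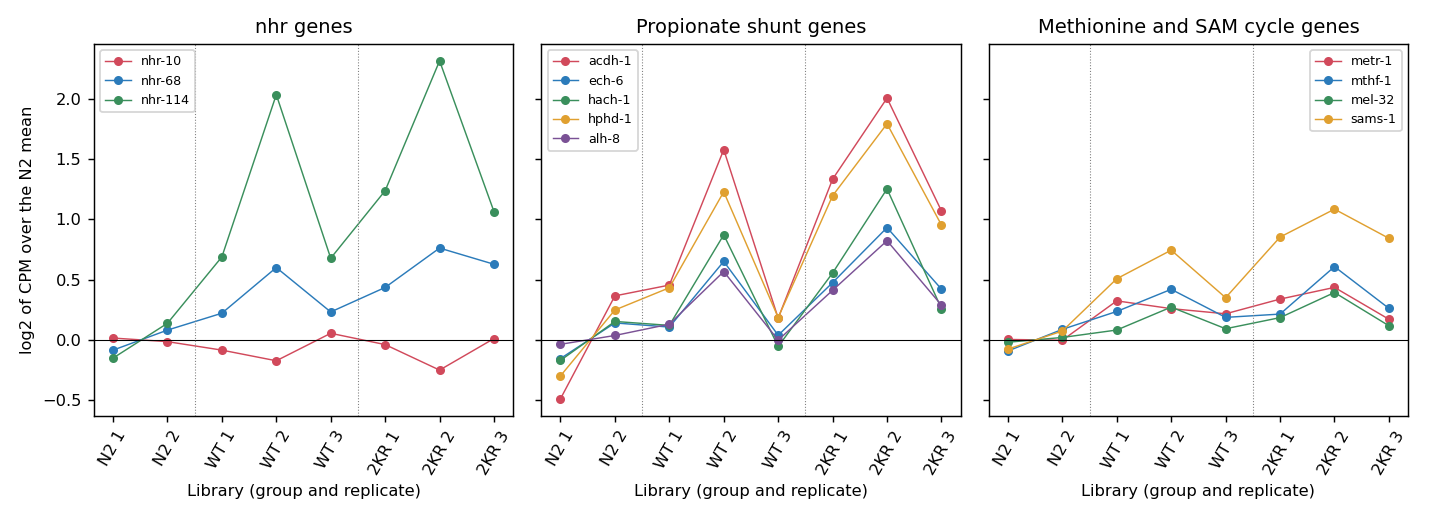
Log2 ratio of the CPM in each library to the mean of the N2 libraries for nhr-10, nhr-68 and nhr-114, for 5 propionate shunt genes and for 4 methionine and SAM cycle genes; dotted lines separate N2, WT and 2KR. The second replicates of WT and 2KR are the highest libraries of their line for the shunt genes, and nhr-10 stays near 0.

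Of 7 target genes of NHR-49 and NHR-80, fat-5, fat-7 and fmo-2 fell in both comparisons with N2 and the other 4 were not called. Of all genes tested, 4.07% were called in WT against N2 and 7.76% in 2KR against N2. Among those 4, fat-6 had 288.4 and 267.4 CPM in N2 and 217 to 258 in the lines, while acs-2, hacd-1 and icl-1 overlapped. With the replicate number as a block in edgeR, fat-6 was called lower in WT (adjusted p = 0.0475) and 2KR (adjusted p = 0.0413). That fit called 12.5% and 18.8% of all genes. fat-7, a stearoyl-CoA desaturase gene, had 19.8 and 14.4 CPM in N2, 4.76, 1.57 and 4.18 in WT, and 5.23, 1.94 and 4.83 in 2KR. Both N2 libraries were well above all others, and its log2 change was -2.28 ± 0.42 in WT (adjusted p = 0.0146) and -2.09 ± 0.41 in 2KR (adjusted p = 0.0151). fat-5, a palmitoyl-CoA desaturase gene, fell by 0.61 in WT and 0.70 in 2KR on the log2 scale (adjusted p = 0.0302 and 0.0118). fmo-2, a flavin monooxygenase gene, had 30.3 and 8.92 CPM in N2, 3.21, 0.675 and 3.79 in WT, and 0.392, 0.219 and 1.14 in 2KR. The N2 libraries differed from each other by more than 3 times, and both were above all libraries of the lines; the log2 change was -2.93 ± 0.61 in WT (adjusted p = 0.0276) and -5.06 ± 0.73 in 2KR (adjusted p = 0.00352). In 2KR against WT the log2 change of fmo-2 was -2.14 ± 0.78 (adjusted p = 0.589). In the fit of the 2 lines with the replicate block the adjusted p was 0.00635, with a range of 6.09e-16 to 1 over 19 alternatives. The lowest value came from that fit without replicate pair 2, which keeps 2 libraries a line. Without pair 1 or pair 3 the adjusted p of fmo-2 was 0.0189 or 0.0418.

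These calls depended on single libraries. Without N2 replicate 1, the library with the higher fmo-2 level, the log2 change of fmo-2 was -1.79 in WT (adjusted p = 0.395) and -3.92 in 2KR (adjusted p = 0.0587), so both calls were lost. Without N2 replicate 2 the log2 change was -3.55 in WT and -5.69 in 2KR, and both calls were kept. The call of fmo-2 in WT was also lost without WT replicate 1 (adjusted p = 0.0505) or 3 (adjusted p = 0.0528), and without 2KR replicate 3 its log2 change in 2KR was -5.96. With all 8 libraries in DESeq2, fmo-2 was not called in WT (adjusted p = 0.0705). Calls of fat-7 and fat-5 were lost without either N2 library, with adjusted p of up to 0.191 and 0.242, and that of fat-5 in WT without any 1 WT library.

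The receptor genes of these targets showed no called change. nhr-49 had 127.2 and 127.1 CPM in N2, 123.5, 120.1 and 113.4 in WT, and 120.9, 119.5 and 105.8 in 2KR. All libraries of both lines were below both N2 libraries, and the log2 change in 2KR against N2 was -0.14 ± 0.07 (adjusted p = 0.223). nhr-80 had 6.59 and 5.89 CPM in N2, 6.60, 6.45 and 5.86 in WT, and 6.21, 6.21 and 7.21 in 2KR, with overlap in all comparisons.

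The remaining lists held no called gene. Of 5 nuclear receptors not named nhr, daf-12 and sex-1 were tested, and the log2 change of daf-12, a receptor for steroid hormones that controls dauer formation, was 0.30 ± 0.12 in 2KR against WT (adjusted p = 0.639). Of the 4 genes for DAF-12 hormone synthesis 3 were tested, and hsd-1 had no count in any library. The cofactor genes mdt-15, a Mediator subunit that works with NHR-49, din-1 and gei-8 had log2 changes between -0.13 and 0.02 over the 3 comparisons. The NHR-86 immune targets irg-4 and irg-5 were not called, and irg-5 had 4.95 and 4.33 CPM in N2, 1.14, 3.34 and 1.79 in WT, and 3.27, 6.17 and 5.40 in 2KR. For irg-5 the log2 change in 2KR against WT was 1.24 ± 0.34 (adjusted p = 0.37), and in the fit of the 2 lines with the replicate block the adjusted p was 0.00735, with a highest value of 0.948 over 19 alternatives.

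Over the 22 studied receptors that were measured, 2 were called in the 3 comparisons of groups without a replicate block, nhr-31 and nhr-68 in 2KR against N2, where 7.76% of all genes were called. The fitted log2 changes of the 22 in 2KR against WT lay between -0.20 and 0.37. The receptors of molting and epidermis had no call: the log2 change in 2KR against N2 was -0.08 ± 0.07 for nhr-23 (adjusted p = 0.485) and -0.47 ± 0.22 for nhr-25 (adjusted p = 0.219). Of the receptors of toxin and sterol responses, nhr-8 had 10.6 and 5.93 CPM in N2, which spanned all 6 libraries of the lines, from 7.34 to 9.55. nhr-176, which acts in the response to the drug thiabendazole, had 5.05 and 4.28 CPM in N2 and 2.80 to 3.69 in the lines. Both N2 libraries were above all others, and the log2 change was -0.57 ± 0.18 in WT (adjusted p = 0.112) and -0.47 ± 0.18 in 2KR (adjusted p = 0.13).

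nhr-57, a gene induced by the hypoxia factor HIF-1, nhr-40, which acts in muscle, the HNF4-related nhr-64 and nhr-69, the GCNF-related nhr-91, nhr-41 and nhr-6 were not called either. Among them nhr-91 had 3.65 and 2.63 CPM in N2, 2.40, 2.55 and 2.35 in WT, and 2.19, 2.27 and 1.88 in 2KR. Its 3 groups did not overlap, with N2 highest, and the log2 change in 2KR against N2 was -0.57 ± 0.20 (adjusted p = 0.107).

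Neighbouring nhr genes were set side by side where a named gene lay in a cluster. nhr-101, at 11570476 to 11572549 on chromosome V, ends 891 bases before nhr-68 on the same strand. It had 6.87 and 8.56 CPM in N2, 7.04, 10.04 and 9.83 in WT, and 9.70, 11.5 and 11.4 in 2KR. The 2KR libraries were above N2 and the log2 change was 0.49 ± 0.17 (adjusted p = 0.114). Its level is uncertain, because an annotated gene on the opposite strand covers 63.5% of its exon bases. In a second cluster, of nhr-194, nhr-195, nhr-143 and nhr-144 within chromosome V at 8968737 to 8977465, nhr-143 had 5.0 and 4.86 CPM in N2, 3.87, 2.47 and 3.16 in WT, and 3.30, 2.70 and 3.48 in 2KR. All libraries of the lines lay below N2, with a log2 change of -0.64 ± 0.20 in both lines (adjusted p = 0.117 in WT and 0.0814 in 2KR). For its neighbours nhr-195 and nhr-144 the log2 change in 2KR against N2 was 0.07 ± 0.34 and 0.23 ± 0.20, and their groups overlapped.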

How the data were processed

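RNA was sequenced from 8 whole-worm libraries after preparation with the NEBNext Ultra Directional kit, per the labels' protocols. Per the submitters' processing notes, the authors used Trimmomatic 0.32, TopHat2 2.1.0 and DESeq2 1.14.1. No label or header used here names the build, annotation, counting program or use of strand. The deposited values are a raw count per gene and, per the file headers, the authors' CPM per gene, which was not used for the results here.

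Counts were analysed in R 4.3.3 with edgeR 4.0.16; tables used pandas 2.3.3, NumPy 2.4.6 and Python 3.11.15, and plots matplotlib 3.10.9. After filterByExpr and TMM scaling, 14361 genes were tested by edgeR's quasi-likelihood test with a term per group. The threshold for a call was 0.05 after Benjamini-Hochberg adjustment across those genes. Standard errors are the log2 change over the root of F. All 153 members passed filterByExpr. The procedure was run on simulated counts drawn without a replicate effect, so that run could not test how the fit treats paired libraries. Positions and exon lengths are from Ensembl 115 (WBcel235), matched by gene identifier; 4 of 64 listed genes were matched by their reference name.

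The labels call the libraries biological repeats, and do not say that they came from separate cultures. The p-values therefore set group differences against the spread between these libraries, which may differ from that between separate cultures. Same-numbered WT and 2KR libraries paired by the correlation of their deviations from group means, which was 0.413, 0.398 and 0.296; N2 had 2 libraries and was not treated as paired. Replicates 1 to 3 are numbered as in the titles.

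Named genes are the nhr genes called with or without the replicate block, the 4 with the smallest p where fewer than 4 were called, the 6 highest per kilobase, 24 studied receptors and those nearest the CPM limit. The members and lists were chosen with earlier results of these data known. Alternatives were DESeq2 1.42.0 and its size factors, no filter, other CPM limits, fits of 2 groups, replicate blocks and leaving out libraries. The 3 libraries of the 4KR line were not used.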

Additional observations from a re-analysis of the deposited data

How the results depend on the processing

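Of 2KR against N2, the 6 nhr genes called were the same with DESeq2 size factors and in DESeq2. The count was 0 to 8 when 1 library was left out, 18 with the replicate block (18.8% of all genes called) and 12 with the block by repeat mark (17.1%). Between N2 and the lines, correlations of deviations were 0.077 to 0.219 for same-numbered libraries and 0.076 to 0.219 for libraries with the same mark. These were below the lowest value of 0.296 between same-numbered WT and 2KR libraries. With 2 libraries the N2 deviations mirror each other, so the check cannot decide whether N2 was paired. Of WT against N2, the count of 0 became 2 in DESeq2, 4 without a filter, 9 with the replicate block (12.5% of all genes), 5 with the block by repeat mark (10.1%) and 1 without both second replicates, and 0 to 0 when 1 library was left out. Of 2KR against WT, the count of 0 became 3 with the block by repeat mark (2.22% of all genes). It became 2 with the replicate block in the 2 lines alone (2.08%). Leaving out 1 pair there gave 0 to 8, with no share of all genes beside it. Leaving out 1 library gave 0 to 0, as it did for replicate 3 against replicate 1. For replicate 2 against replicate 1 the count of 10 became 3 in DESeq2 and 1 to 15 when 1 library was left out. The measured genes numbered 175 at a CPM of at least 0.5, 118 at 2 and 183 under filterByExpr.

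For the pathway genes, the count of 0 in 2KR against WT became 2 in DESeq2, 2 without a filter, 8 with either replicate block, 8 in the 2 lines alone (7 to 12 without 1 pair), 2 without both second replicates and 0 to 2 with 1 library left out. The count of 4 in WT against N2 became 14 and 8 with the replicate block by number and by mark, and 0 to 5 with 1 library left out. The count of 6 in 2KR against N2 became 12 without a filter, 15 with either replicate block, 10 without both second replicates and 1 to 9 with 1 library left out. The share of all genes called also rose with the replicate block. In 2KR against WT it was 0.244% without a block, 1.54% by number, 2.22% by mark and 2.08% in the 2 lines alone. In WT against N2 it was 4.07%, 12.5% and 10.1%, and in 2KR against N2 7.76%, 18.8% and 17.1%. No share is given for the other settings, so the counts in those settings are not results about nhr genes or pathway genes. No set test was run. The sign turned for nhr-114 in 2KR against WT without 2KR replicate 2, at -0.13, and leaving out 1 library gave up to 0.971. Over 85 gene results, leaving out libraries kept 564 of 640 refits on their side of the threshold with the same sign, and 66 lost and 9 gained a call; other alternatives kept 469 of 625, and 9 lost and 147 gained one. The causes were not tested. A comparison of replicates within each line apart gives ratios with no test. Members near 1 CPM had few counts, and the size of change that could be detected in them was not tested.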
